A study of Mus musculus with 2 samples.

Results

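The genes described here are those named for proteins of the mitochondrial ribosome and of the TIM and TOM protein import machineries. They were followed through the histone mark H3K4me3 at their promoters in mouse embryonic stem cells. They are the protein-coding genes of the mm10 RefSeq gene table whose symbols start with Mrpl, Mrps, Timm or Tomm followed by a digit. This rule gave 103 of 21536 protein-coding genes analysed. The mark was measured by chromatin immunoprecipitation and sequencing (ChIP-seq) in E14TG2a.4, a male embryonic stem cell line of strain 129/Ola. The labels name no treatment and no genetic change, and they number 2 biological replicates of this 1 line, which form 1 group, so no contrast between conditions exists. The main counts and medians are therefore given beside those over all coding genes, with no test between groups.

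Mitochondria make a small set of respiratory chain proteins on their own ribosomes, whose RNA comes from the mitochondrial genome while the ribosomal proteins are encoded in the nucleus. Those proteins, like nearly all mitochondrial proteins, are made in the cytosol and enter through the TOM complex of the outer membrane, after which the TIM23 complex passes proteins with a presequence, the TIM22 complex inserts carrier proteins into the inner membrane, and small Tim chaperones guard hydrophobic proteins in the space between. H3K4me3 is laid down around the starts of active and poised genes, usually over the nucleosomes that flank the start. Nuclear respiratory factor 1 (NRF1) and GABP, an ETS-family factor also named NRF2, are known activators of nuclear genes for mitochondrial proteins.

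The data were peak lists, and the sequencing depth behind them is unknown, which limits what a missing peak can show. The mm10 lists held 86781 peaks for replicate 1 and 83750 for replicate 2, and the authors' replicated list, the main list here, held 62128, each identical to a peak of their pooled list. Of all coding genes 66.6% had a promoter peak, with a median signal of 43.0. Markers of pluripotent stem cells (Pou5f1, Sox2, Nanog, Zfp42, Klf4 and Sall4) had promoter peaks in 6 of 6, with a median signal of 59.5. Nanog was the lowest of them at 37.7 (23.9 in replicate 1 and 47.9 in replicate 2), below the median of coding genes. Of the markers of fibroblast feeder cells, 3 of 5 had a peak, at signals from 13.7 to 23.4, with Col3a1 and Acta2 at none. Of 4 markers of other lineages, only Myod1 had one, at 11.5.

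Promoter sequences of 91 members were found in a RefSeq table (GRCm38.p6, the mm10 build), each with 250 bases before the start and 50 from the start on. Promoter sequences of Mrpl13, Mrpl15, Mrpl19, Mrpl38, Mrpl4, Mrpl54, Mrps28, Mrps34, Mrps35, Timm21, Tomm40l and Tomm7 were not analysed here. The 8 sequences below, picked after their values were seen, show the strongest member (Tomm40), promoters shared with a neighbour (Mrps11, Timm8b) or rich in motif matches (Mrpl45, Tomm22) and 3 of the members whose peak was missing or low (Mrpl22, Timm8a1, Timm8a2). Capitals mark matches, on either strand, to GCGCANGCG (NRF1), CCGGAAG (ETS) and ANATGGCGG (YY1, a zinc finger factor).
Tomm40, chr7:19715380-19715679, minus strand: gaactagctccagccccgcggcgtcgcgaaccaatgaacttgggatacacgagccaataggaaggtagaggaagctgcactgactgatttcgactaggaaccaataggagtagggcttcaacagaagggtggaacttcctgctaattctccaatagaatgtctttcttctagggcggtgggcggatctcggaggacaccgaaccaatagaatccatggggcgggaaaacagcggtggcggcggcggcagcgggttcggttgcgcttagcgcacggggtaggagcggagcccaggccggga
Mrps11, chr7:78782881-78783180, plus strand: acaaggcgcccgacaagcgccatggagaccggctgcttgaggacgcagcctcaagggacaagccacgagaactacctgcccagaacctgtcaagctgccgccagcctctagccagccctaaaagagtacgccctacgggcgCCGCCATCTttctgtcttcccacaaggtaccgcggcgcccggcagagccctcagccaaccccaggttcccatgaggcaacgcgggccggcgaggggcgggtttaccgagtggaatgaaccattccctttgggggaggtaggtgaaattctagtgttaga
Timm8b, chr9:50603651-50603950, plus strand: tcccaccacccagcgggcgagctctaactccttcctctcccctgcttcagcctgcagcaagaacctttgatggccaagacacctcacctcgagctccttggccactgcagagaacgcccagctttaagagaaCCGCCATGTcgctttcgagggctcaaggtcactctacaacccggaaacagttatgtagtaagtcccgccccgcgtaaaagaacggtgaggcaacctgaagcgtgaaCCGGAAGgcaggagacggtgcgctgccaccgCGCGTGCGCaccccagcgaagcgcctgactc
Mrpl45, chr11:97315466-97315765, plus strand: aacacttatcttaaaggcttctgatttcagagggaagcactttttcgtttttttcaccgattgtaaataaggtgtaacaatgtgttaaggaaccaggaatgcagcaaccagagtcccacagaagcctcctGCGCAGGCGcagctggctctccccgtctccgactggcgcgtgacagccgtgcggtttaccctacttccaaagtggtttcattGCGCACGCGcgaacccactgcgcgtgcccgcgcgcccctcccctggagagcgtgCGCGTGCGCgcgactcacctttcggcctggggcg
Tomm22, chr15:79670618-79670917, plus strand: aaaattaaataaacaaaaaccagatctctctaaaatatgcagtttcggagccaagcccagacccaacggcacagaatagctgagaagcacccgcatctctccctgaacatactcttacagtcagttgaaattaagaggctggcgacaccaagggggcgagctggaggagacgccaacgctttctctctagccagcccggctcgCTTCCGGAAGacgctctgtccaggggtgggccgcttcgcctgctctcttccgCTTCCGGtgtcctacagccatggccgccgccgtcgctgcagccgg
Mrpl22, chr11:58171414-58171713, plus strand: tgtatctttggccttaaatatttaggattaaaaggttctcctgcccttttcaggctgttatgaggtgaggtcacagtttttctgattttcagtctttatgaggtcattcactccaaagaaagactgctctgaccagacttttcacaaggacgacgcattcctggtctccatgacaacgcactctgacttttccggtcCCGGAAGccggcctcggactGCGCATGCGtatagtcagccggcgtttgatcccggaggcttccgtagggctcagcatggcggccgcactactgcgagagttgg
Timm8a1, chrX:134541621-134541920, minus strand: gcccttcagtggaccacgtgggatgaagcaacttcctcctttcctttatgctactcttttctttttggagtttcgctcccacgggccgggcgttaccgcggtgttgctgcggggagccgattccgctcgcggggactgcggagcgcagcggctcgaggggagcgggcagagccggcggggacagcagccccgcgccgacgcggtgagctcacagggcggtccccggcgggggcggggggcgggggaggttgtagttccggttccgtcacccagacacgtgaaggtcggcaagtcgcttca
Timm8a2, chr14:122034424-122034723, plus strand: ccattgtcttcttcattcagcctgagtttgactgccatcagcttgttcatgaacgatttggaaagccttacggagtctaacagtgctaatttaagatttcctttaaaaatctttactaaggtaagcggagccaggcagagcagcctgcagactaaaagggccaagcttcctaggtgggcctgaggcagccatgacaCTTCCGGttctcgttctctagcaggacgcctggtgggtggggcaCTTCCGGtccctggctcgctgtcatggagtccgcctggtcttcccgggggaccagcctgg
Positions are counted from the start base, negative before it. In Timm8b all 3 motifs occur, YY1 at -118, ETS at -12 and NRF1 at 19. Mrpl45 holds 3 NRF1 matches, at -120, -38 and 16. Tomm22 holds 3 ETS matches, at -47, -44 and 5, of which the first 2 overlap on opposite strands. The single match in Mrps11, for YY1 at -109, lies on the far side of the start of Mrpl46, 42 bp away on the other strand. Tomm40 and Timm8a1 hold no match to these 3 motifs.

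Matches to the ETS, NRF1 and YY1 letters were found in larger shares of these promoters than of coding promoters at large. ETS letters occurred in 33 of 91 (36.3%) against 11.9% of 17492 coding promoters, NRF1 letters in 19 (20.9%) against 8.87%, and YY1 letters in 10 (11.0%) against 2.6%. At least 1 of the 3 was present in 51 (56.0%) against 20.7% of all coding promoters, and 2 or more in 10 (11.0%) against 2.61%. These promoters are also rich in CpG, with a median observed-to-expected CpG ratio of 0.818 against 0.577, and 80 of 91 had a ratio of 0.6 or more against 48.4%. Among all coding promoters with that ratio the shares were 19.9% for ETS, 17.1% for NRF1 and 4.69% for YY1, so the gap to the members was smaller for all 3 motifs, and for NRF1 letters it was 20.9% against 17.1%. At least 1 of the 3 was present in 36.5% of those promoters and 2 or more in 5.15%. The cytosolic ribosomal protein genes held ETS letters in a similar share, 20 of 53 (37.7%), and the respiratory chain genes held NRF1 letters in 18 of 70 (25.7%). The other shares in these sets were 11.3% for NRF1 in the cytosolic and 20.0% for ETS in the respiratory chain genes. YY1 letters occurred in 7.55% of the cytosolic and 8.57% of the respiratory chain genes. At least 1 of the 3 was present in 54.7% and 45.7%, and 2 or more in 1.89% and 8.57%. The raised shares are thus not particular to the members.

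The other motifs searched were not raised in this way. Sp letters (GGGCGG) occurred in 44 of 91 (48.4%) against 46.3%, which is below the 64.9% of coding promoters that have a peak. The E-box (CACGTG) occurred in 10 (11.0%) against 7.91% and TATA letters (TATAAA) in 6 (6.59%) against 13.3%. Among coding promoters that have a peak these shares were 10.2% for the E-box and 7.11% for TATA letters, close to those of the members. The ZNF143 letters ACTACAATT occurred in 0 of 91 against 0.543%. All 7 motifs were searched on both strands, and matches of different motifs overlapped once in the members, an ETS with an Sp match. By position, 40 of the 44 ETS matches lay from 100 bp before to 50 bp after the start, with a median of -16, whereas 8 of the 10 YY1 matches lay downstream of the start. Promoters with and without NRF1 letters had median signals of 62.7 and 62.8, and those with and without ETS letters 60.8 and 63.3. A match is a description of letters and was not tested as a binding site.

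**Figure D1:**
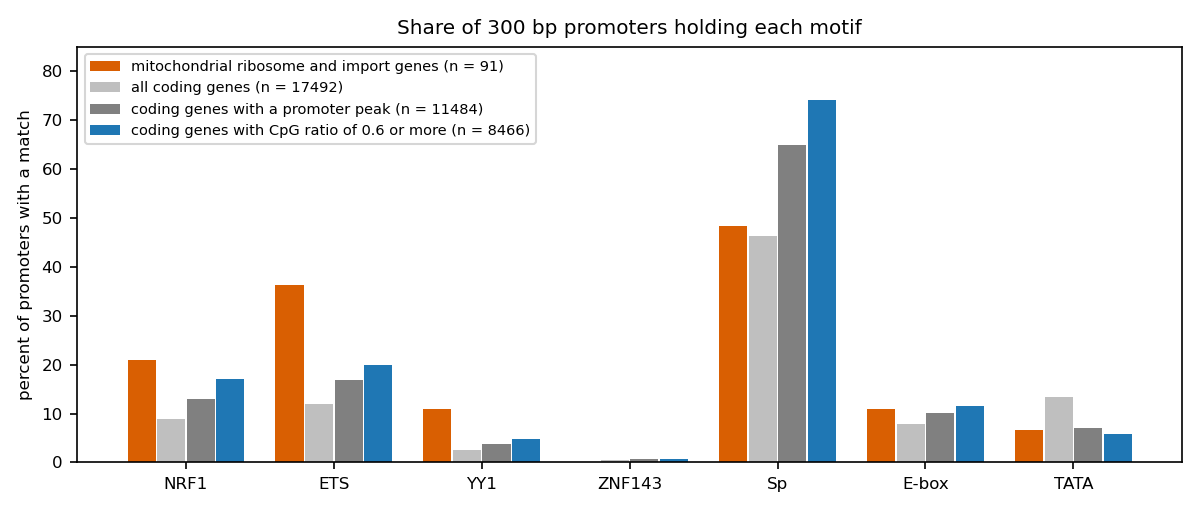
Percent of 300 bp promoters (y axis) with at least 1 match to each of 7 motifs (x axis), in the mitochondrial ribosome and import genes, all coding genes, coding genes with a promoter peak and coding genes with a CpG ratio of 0.6 or more. The ETS bar of the members reaches 36.3% against 11.9% of all coding genes, while the Sp bar at 48.4% is close to the 46.3% of all coding genes.

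Nearly all of these genes carried H3K4me3 at the promoter, and most carried it strongly. Genes with a peak within 1 kb of the 5′ end were counted as marked, and 101 of 103 members were marked (98.1%, Wilson 95% interval 93.2 to 99.5%, which covers counting error only) against 66.6% of coding genes in the replicated list. The same 101 were marked in replicate 1, against 66.9% of coding genes, and in replicate 2, against 66.8%. The 2 members without a peak in any mm10 list were Mrpl22, of the large subunit, and Timm8a2, a small Tim gene. In the mm9 lists, where every coding start of a gene was tried, 103 of 103 were marked in the pooled list and in each replicate, against 72.0, 71.3 and 70.8% of coding genes.

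The signal of a promoter is the authors' ratio of ChIP over control at its strongest peak. Its median over the 101 marked members was 62.0, with quartiles of 53.1 and 68.0, against 43.0 with quartiles of 23.4 and 57.7 over all 14343 marked coding genes. In replicate 1 the medians were 53.9 and 38.4, and in replicate 2 they were 53.1 and 36.5. The value in the replicated list, which comes from the pooled reads, was above both replicates' own values for 94 of 101 members. Of the marked members, 62 (61.4%) lay above the upper quartile of all marked coding genes, against 24.9%, and 2 lay below the lower quartile. Among coding genes with a CpG ratio of 0.6 or more, 95.2% were marked, with a median signal of 49.7. The 80 members with such a promoter had 62.8, and the 11 members below that ratio, 10 of them marked, had 63.0.

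**Figure D2:**
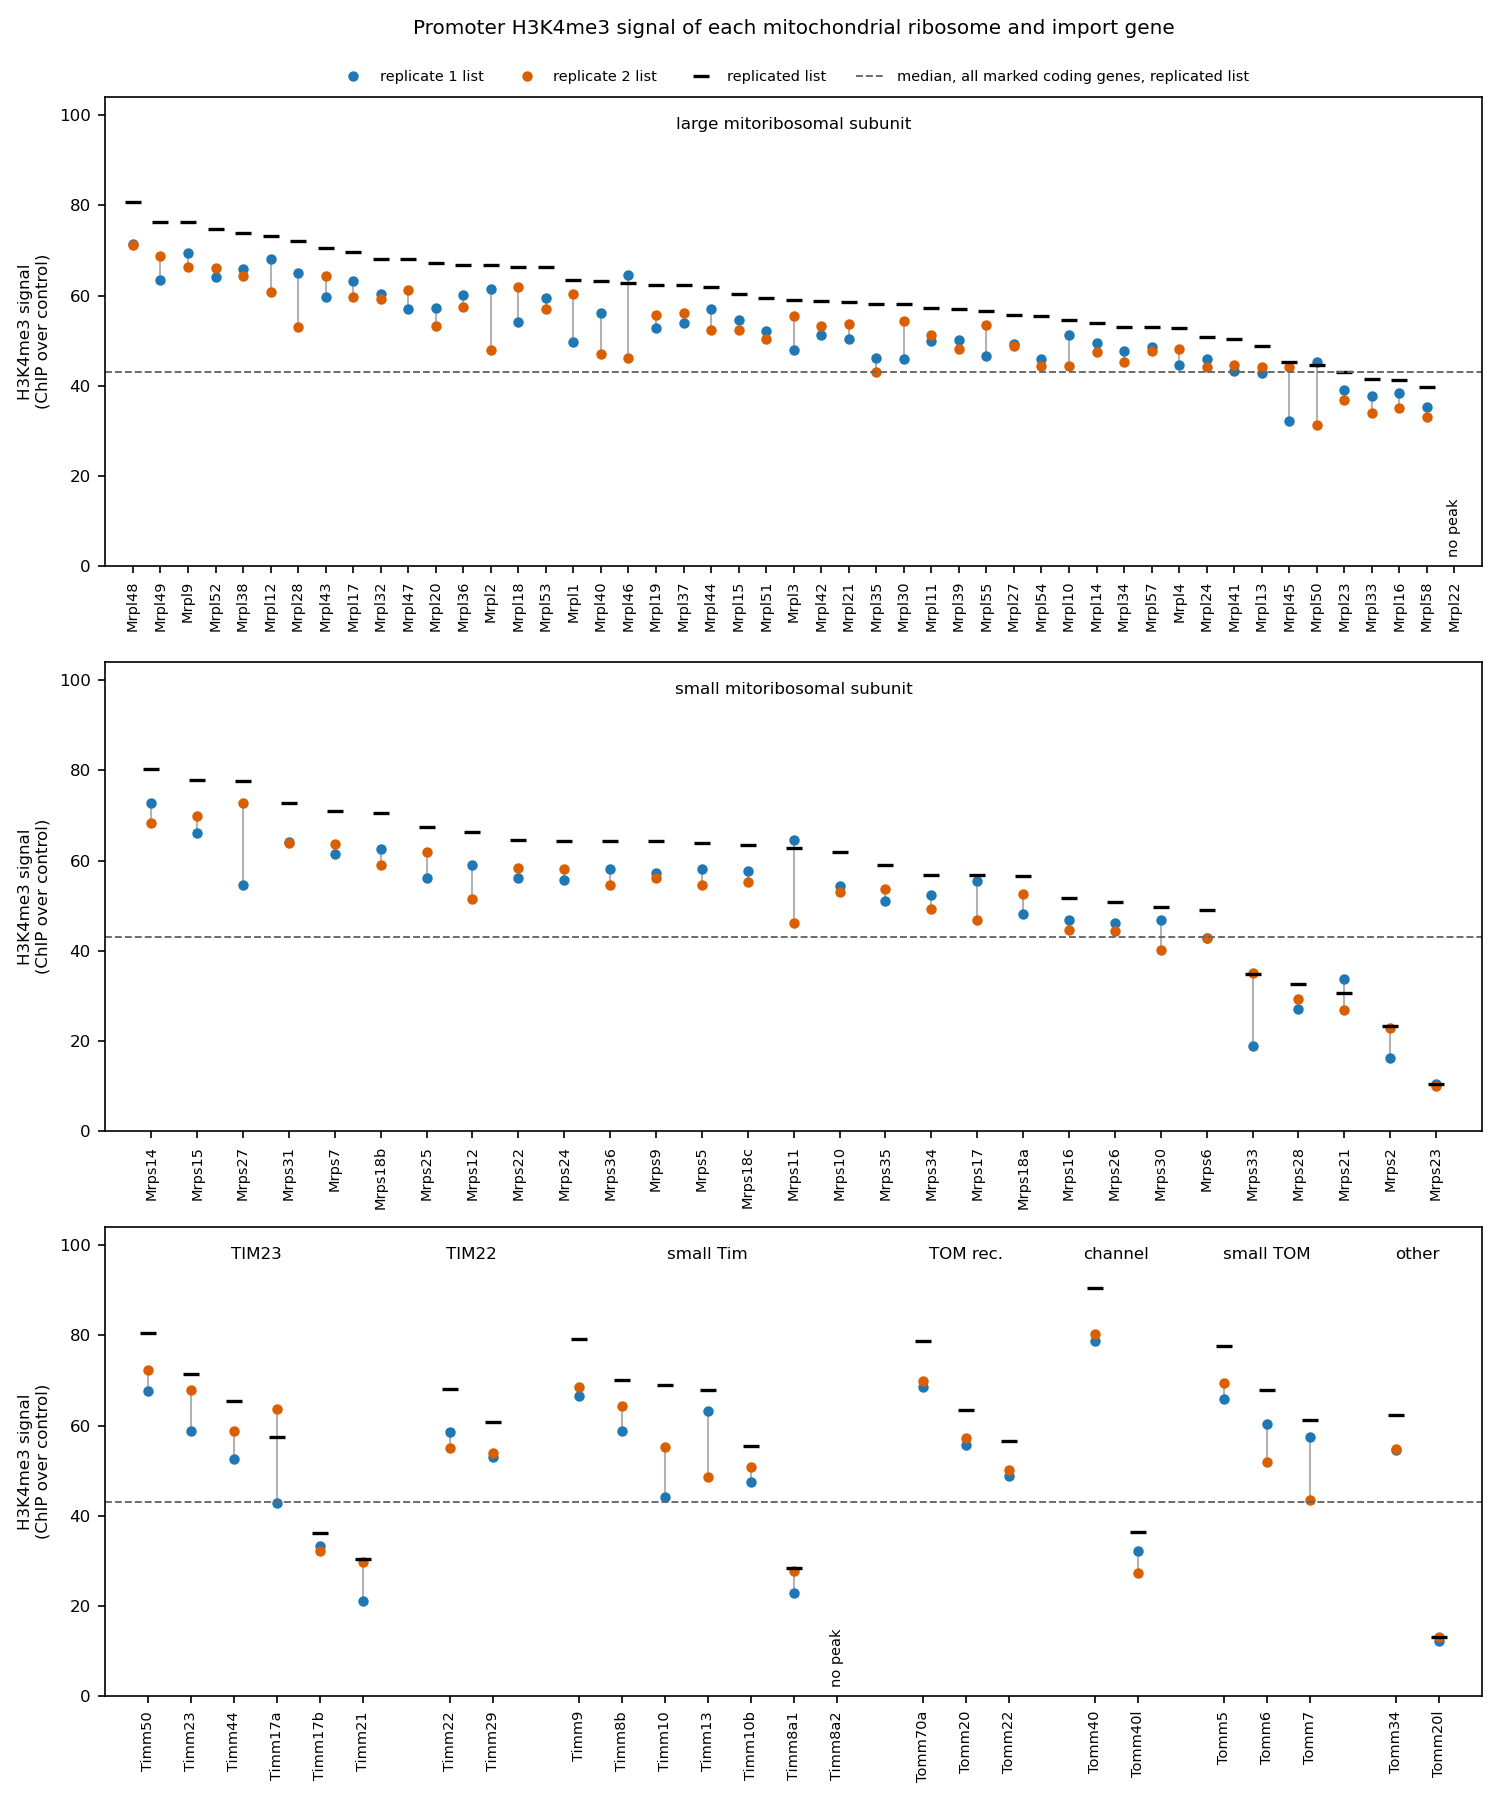
H3K4me3 signal, as ChIP over control, on the y axis for each member on the x axis, grouped by role and ordered by signal. Circles are the lists of replicates 1 and 2, black bars the replicated list and the dashed line the median of all marked coding genes (43.0). Tomm40 stands highest at 90.4, Mrps23 and Tomm20l lowest at 10.5 and 13.2, and Mrpl22 and Timm8a2 had no peak.

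Large subunit genes were marked in 48 of 49, with a median signal of 59.2 and a range from 39.7 (Mrpl58) to 80.8 (Mrpl48). Mrpl48 had 71.5 in replicate 1 and 71.2 in replicate 2, and its peak also covers the start of Rab6a, a Golgi GTPase gene that begins 726 bp inside Mrpl48 on the other strand. Mrpl49 and Mrpl9 followed at 76.2 each. At the low end stood Mrpl58, which encodes a peptidyl-tRNA hydrolase built into the ribosome, Mrpl16 at 41.2 and Mrpl33 at 41.6. No marked large subunit gene fell below the lower quartile of coding genes (23.4).

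Small subunit genes, taken by the symbol Mrps alone, were marked in 29 of 29, with a median of 62.8 and a wider range. Whether the protein of each gene with an Mrps symbol belongs to the small subunit was not checked. Mrps14 had 80.2 in the replicated list and 72.7 and 68.4 in replicates 1 and 2. Mrps15 had 77.8 and Mrps27 had 77.6. A tail of 5 small subunit genes lay below the median of coding genes. Mrps23 had 10.5, with 10.5 and 9.96 in the replicates, and Mrps2 had 23.4, with 16.3 and 22.8. Mrps21 (30.7), Mrps28 (32.8) and Mrps33 (34.9) completed it. Both replicates were thus low at the 5′ ends of Mrps23 and Mrps2.

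Genes of the import machinery held both the highest and some of the lowest values. The 6 genes of the TIM23 complex had a median of 61.5. Timm50, the receptor that hands presequences to the channel, led with 80.5 (67.7 and 72.3 in the replicates), Timm23, the channel itself, had 71.5 (58.8 and 68.0), and Timm44, which tethers the import motor, had 65.4 (52.6 and 58.8). Timm21 was lowest at 30.5, with 21.2 in replicate 1 and 29.8 in replicate 2. In the TIM22 complex Timm22 had 68.2 and Timm29 had 60.8. Small Tim genes were marked in 6 of 7 with a median of 68.4, led by Timm9 at 79.2 (66.6 and 68.7).

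In the TOM complex, Tomm40, the gene of the outer membrane channel, had the highest signal of all members at 90.4. It had 78.8 in replicate 1 and 80.3 in replicate 2. Its 5′ end is at base 19715442 of chromosome 7, minus strand, and its domain was 4265 bp wide with the summit 365 bp downstream. Among the receptors Tomm70a had 78.8 (68.5 and 70.0), Tomm20 63.6 (55.8 and 57.3) and Tomm22 56.5 (48.9 and 50.3). The small subunits Tomm5 (77.6), Tomm6 (67.9) and Tomm7 (61.3) all lay above the upper quartile of coding genes. Outside the complex, Tomm34, a cytosolic co-chaperone, had 62.4.

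The 2 members on the X chromosome were both below the median of coding genes. Timm8a1 had 28.5 (23.0 and 27.7) and Timm17b 36.2 (33.3 and 32.1). X-linked coding genes as a whole had a median of 24.2 against 43.9 for autosomal genes, so both lay above the X-linked median. The line is male and has 1 X chromosome, and the part of copy number in these values was not tested.

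Several genes with a close relative in the genome differed in signal from that copy. Tomm40 had 90.4 and Tomm40l 36.5 (32.3 and 27.4). Tomm20 had 63.6, and Tomm20l 13.2 (12.2 and 13.2). Timm17a had 57.6, with 42.8 and 63.6 in the replicates, and Timm17b 36.2. How often the replicate ranges of other pairs of coding genes overlap was not counted, so overlap of ranges was not used to compare copies. Timm8b had 70.0 (58.7 and 64.3), Timm8a1 28.5, and Timm8a2 no peak at its 5′ end. Copies of other groups lay closer: Timm10 had 69.0 (44.2 and 55.4) and Timm10b 55.5 (47.5 and 50.8), with Timm10b the higher in replicate 1. Mrps18a had 56.7 (48.2 and 52.6), Mrps18b 70.6 (62.6 and 59.0) and Mrps18c 63.6 (57.8 and 55.2). Whether near-identical sequence between copies affected the mapping of reads was not tested.

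For Mrpl22, Mrps23 and Mrps2 the missing or low value depended on where the start of the gene was set, whereas for Tomm20l (13.2) and Timm8a1 (28.5) both tables gave the same start. For 91 members the promoter table gives a start of its own, which was the same base as the gene's 5′ end in 66, within 100 bp in 10 and further away in 15, among them 7 at over 1 kb. At the table start 91 of 91 members were marked, against 67.1% of 17492 coding genes, a comparison added after the data were seen. Mrpl22 had no peak at its 5′ end and 51.9 (49.2 and 41.7 in the replicates) at the table start 1621 bp downstream, whose sequence above holds an NRF1 and an ETS match. Timm8a2 had 20.0 (18.4 and 17.9) at the table start 6997 bp downstream, in a domain of only 984 bp. It thus remained among the weakest of the members, and its promoter held 10 CpG at a ratio of 0.463, against a median of 21 and 0.818.

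Mrps23, the lowest marked member, had 61.8 (56.8 and 51.8) at the table start, 10282 bp downstream of its 5′ end. Mrps2 had 73.0 (63.1 and 64.8) at the table start 2115 bp downstream, within the same domain of 6366 bp. The members' median at the table start was 62.8, so Mrps23 lay near it and Mrps2 above it. Mrpl36 went the other way, from 66.9 at a 5′ end 21 bp from the start of Ndufs6 to 47.3 (42.8 and 40.6) at the table start 2506 bp downstream. For the remaining 10 of the 15 the strongest peak in the replicated list was the same at either start, and the summit position changed. It came from 1662 to 249 bp downstream for Mrpl24, from 1187 to 296 bp for Mrps31, from 1168 to 375 bp for Mrpl45 and from 889 to 272 bp for Mrpl1. For Mrpl18 it went from 1115 bp downstream to -581 bp, that is upstream. Replicate 2 also gave -581 bp, but in replicate 1 another peak (56.5) was strongest at the table start, with its summit 180 bp downstream. For Mrpl14 the summit went from 126 bp downstream to -501 bp, so the table start was not nearer to the summit in every case. Which start the cells use was not tested.

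**Figure D3:**
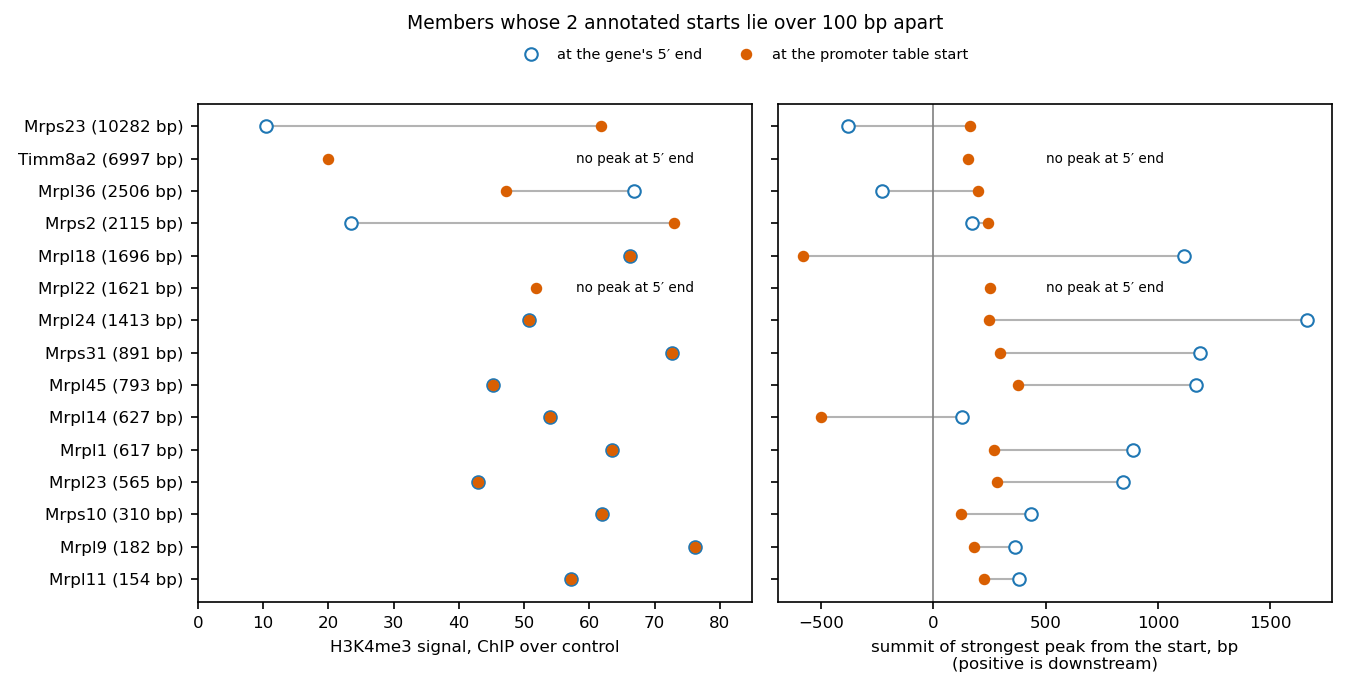
Signal as ChIP over control (left) and position of the strongest summit in bp from the start, positive downstream (right), for the 15 members whose gene 5′ end (open circles) and promoter table start (filled circles) lie over 100 bp apart, with that distance in brackets, replicated list. Mrps23 moves from 10.5 to 61.8 and Mrps2 from 23.4 to 73.0, and Mrpl22 and Timm8a2 have a peak at the table start alone.

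Domains over these promoters were close in width to those of coding genes at large. Peaks under 1 kb apart were joined into domains, and the widest domain at each promoter had a median of 2655 bp over the marked members, with quartiles of 2157 and 3905 bp, against 2427 bp with quartiles of 1677 and 3610 bp over marked coding genes. Above the upper quartile of coding genes in width were 29 members (28.7%), against 25%. By contrast the 72 cytosolic ribosomal protein genes, which build the other ribosome of the cell, had a similar signal, with a median of 63.4, and were wider, with a median of 5611.5 bp. The respiratory chain genes, marked in 80 of 86, had 60.0 and 2718.5 bp. The greater width of the cytosolic genes lay mostly on the gene side, where their domains reached a median of 4253 bp downstream of the 5′ end, against 1591 bp in the members, and 1225 bp upstream against 869 bp.

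**Figure D4:**
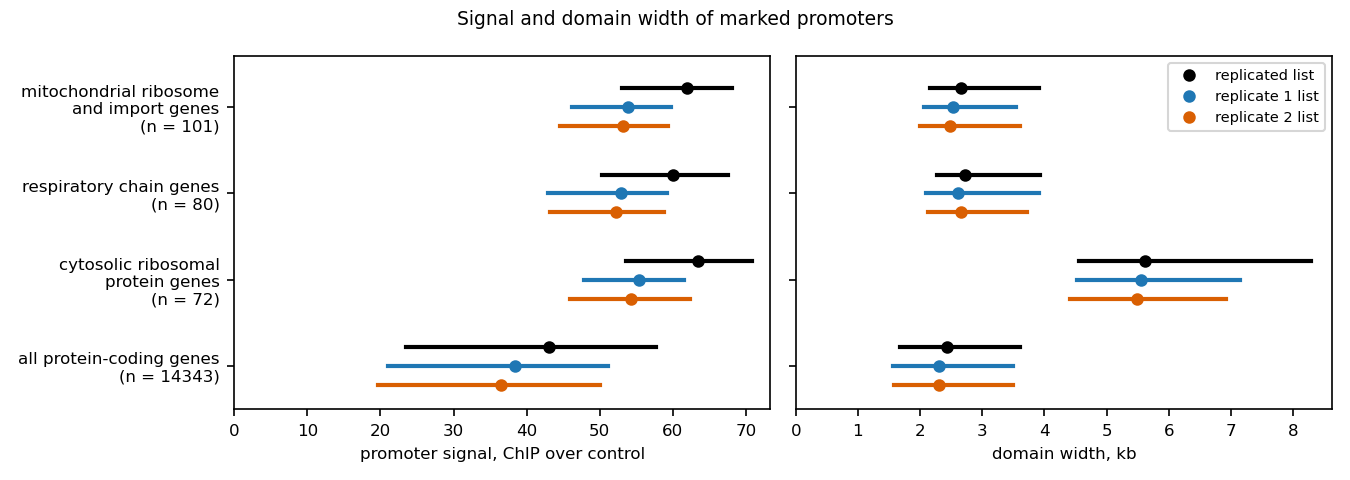
Promoter signal as ChIP over control (left) and domain width in kb (right) of marked genes in 4 groups, with n from the replicated list, points for medians and bars from the lower to the upper quartile, for the replicated list and each replicate. The mitochondrial ribosome and import genes (62.0) and the cytosolic ribosomal protein genes (63.4) have similar median signals but median widths of 2655 and 5611.5 bp.

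The widest domain belonged to Mrps12, at 11262 bp, but to 4300 bp in replicate 1 and 5584 bp in replicate 2. It also holds the start of Sars2, the mitochondrial seryl-tRNA synthetase gene. Mrps18b followed with 8107 bp (8115 and 6172 bp), shared with the phosphatase regulator gene Ppp1r10, and Mrpl49 with 7945 bp (8230 and 7770 bp), shared with Fau, which encodes a cytosolic ribosomal protein, and with Znhit2. Mrpl38 was the other member over 1.5 times wider in the replicated list than in either replicate, at 4586 bp against 1584 and 1876 bp. The narrowest domains were those of Mrps33 (1106 bp, 1098 and 1059 bp in the replicates), Timm22 (1338 bp, 1273 and 1325 bp) and Mrpl16 (1471 bp, 1393 and 1403 bp). The 53 members alone in their domain had a median width of 2291 bp, and the 43 whose domain held 2 or more coding 5′ ends had 3238 bp.

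Many of these genes start back to back with another gene. A divergent coding neighbour, on the opposite strand with its 5′ end upstream and within 1 kb, was found for 27 of 103 members (26.2%), against 6.9% of coding genes and 10.1% of marked coding genes. The distance between the paired 5′ ends ranged from 9 to 892 bp with a median of 93 bp, close to the 100.5 bp of all coding genes with such a neighbour, and 16 of the 27 lay within 100 bp. In all 27 the strongest promoter peak of the member was also that of the neighbour, so these values cannot be told apart between the genes of a pair. The search windows of paired starts overlap by the rule that chose the pairs, which makes a shared peak likely from the outset. The same share over all coding genes with such a neighbour is not given here. Mrpl46 and Mrps11 are each other's neighbour and both count among the 27. In 14 further members the 5′ end of an opposite-strand gene lay inside the gene within 1 kb, 1 member, Mrps6, started 14 bp from Slc5a3 on the same strand, and 61 had no other coding 5′ end within 1 kb.

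Several partners are themselves genes for mitochondrial proteins. Mrpl46 and Mrps11, of the large and the small subunit, start 42 bp apart and share 1 peak of 62.8 (64.6 in replicate 1 and 46.1 in replicate 2), so their 2 values are 1 measurement. Timm8b starts 52 bp from Sdhd, a subunit of respiratory complex II, at a signal of 70.0. Mrpl36 starts 21 bp from Ndufs6 and Mrpl47 302 bp from Ndufb5, both genes of complex I, and Mrps12 starts 136 bp from Sars2. In Mrpl43 the start of Twnk, the mitochondrial DNA helicase gene, lies 779 bp inside on the other strand.

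The strongest members with a divergent neighbour were Timm9, 140 bp from 2700049A03Rik, at 79.2 (66.6 and 68.7), and Mrps27, 89 bp from Ptcd2, at 77.6 (54.6 and 72.8). Mrpl49, 192 bp from Fau, had 76.2 (63.4 and 68.7), and Timm23, 39 bp from the poly(ADP-ribose) glycohydrolase gene Parg, had 71.5 (58.8 and 68.0). Members with such a neighbour had a median signal of 63.1 against 61.0 for those without, a smaller gap than between coding genes with and without one (58.5 and 40.5). Their domains had a median of 3827 bp against 2485.5 bp, and those of coding genes with and without one had 3242 and 2324 bp.

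The summit of the strongest peak lay a median of 262 bp downstream of the 5′ end, with quartiles of 202 and 347 bp, against 274 bp with quartiles of 166 and 484 bp for marked coding genes. It fell between 100 and 400 bp downstream in 72 of 101 members (71.3%) and in 49.6% of marked coding genes. This band was not among the planned results, and it holds both of the members' quartiles. At the table start the shares were 74 of 91 (81.3%) and 56.6%. The respiratory chain genes were close to the members, with a median of 254 bp and 63.75% in the band, or 70.6% at the table start. In the cytosolic ribosomal protein genes the median was 541 bp. The summit was upstream of the 5′ end in 10 of the 27 members with a divergent neighbour (37.0%) and in 3 of the 74 marked members without one (4.05%). Among all marked coding genes these shares were 50.7% and 11.0%.

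In these 10 members the summit lay beyond the neighbour's 5′ end, on the neighbour's side. The count was 9 in replicate 1 and 9 in replicate 2, and Mrpl13, 92 bp from Mtbp, had it at 229 bp downstream in replicate 1 and at -424 bp in replicate 2. For Timm23 the summit was at -294 bp, beyond the start of Parg, and for Timm10b at -317 bp, beyond that of Arfip2. For Mrpl40 it was at -1115 bp, on the side of the histone chaperone gene Hira, and for Mrpl54 at -1494 bp, on the side of Apba3. Their signals of 63.1 and 55.4 therefore describe a peak whose highest point is over 1 kb from the member's own 5′ end. The paired genes Mrpl46 and Mrps11 had the shared summit at 251 bp and -293 bp, inside Mrpl46.

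**Figure D5:**
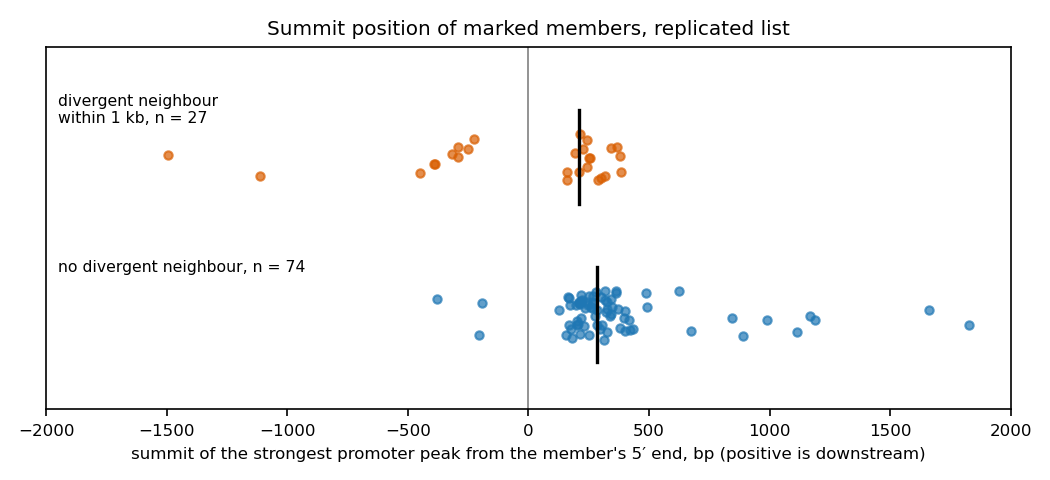
Position of the strongest summit in bp from the 5′ end, positive downstream, on the x axis for each marked member with and without a divergent coding neighbour within 1 kb, replicated list, with medians as black lines and points spread vertically for display. Upstream summits number 10 of 27 with a neighbour and 3 of 74 without.

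The replicates gave like values for most members. Over the 101 members the Spearman correlation of signal between the lists was 0.772, a description across genes of 1 pair of libraries, and 0.965 over the 14215 coding genes marked in both, whose signals span a wider range. The higher value was in replicate 1 for 54 members and in replicate 2 for 47. The values were within 1.2 times of each other in 84, and the median ratio of the higher to the lower was 1.06, against 1.08 over those coding genes. Mrps33 alone was over 1.5 times apart, with 18.9 in replicate 1 and 35.0 in replicate 2. Timm17a (42.8 and 63.6) and Mrpl50 (45.4 and 31.3) came next. No member was marked in 1 replicate only.

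Other genes of mitochondrial translation and import, under other names, showed values like these. Of all coding genes 66.6% were marked, with a median signal of 43.0. Of coding genes with a CpG ratio of 0.6 or more 95.2% were marked, with a median of 49.7. Mitoribosomal proteins with other symbols were marked in 5 of 5 (median 61.5), from Ptcd3 at 37.3 to Gadd45gip1 at 63.4. Translation factors were marked in 15 of 15 (median 61.0), with Lrpprc, which stabilises mitochondrial messenger RNA, at 78.4 and the release factor gene Mtrf1 at 26.7. Mitochondrial tRNA synthetase genes were marked in 15 of 17 (median 59.8). The other two, Aars2 and Tars2, had 48.7 and 72.5 at table starts 3317 and 1388 bp from their 5′ ends. Genes of the import motor, sorting, processing and folding were marked in 20 of 20 (median 60.6), from Mtx3, of the outer membrane sorting machinery, at 42.3 to Grpel1, a nucleotide exchange factor of the import motor, at 82.5. Hspa9, the Hsp70 of that motor, had 77.6, and the chaperonin genes Hspd1 and Hspe1 shared a peak of 70.5 in a domain of 8330 bp.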

How the data were processed

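H3K4me3 ChIP-seq peak lists of 2 replicates in 1 group were used. Per the deposited file descriptions, the mm10 lists give for each peak a signal value, which is the authors' ratio of ChIP over control, its p-value and q-value as deposited −log10 values, and a summit; the replicated list was derived from both replicates' lists and the pooled list. The mm9 lists hold the authors' ratio, p-value and q-value per region, and only their positions were used. Aligner and peak caller: neither is given in the sources used here. Depth is unknown, so no floor for a missing peak could be set.

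Of 21900 coding genes in the GRCm38.p6 RefSeq table, 21536 had a strand and were analysed. Strand came from the RefSeq promoter table for 17492 genes and otherwise from GENCODE vM1, by gene name (3649) or synonym (395) within a chromosome; where both sources gave one, it was the same for 16489 of 16539. Of the members, 12 took it from vM1. mm9 lists were compared with vM1 starts, and no coordinate was moved between builds. A promoter was the 5′ end ± 1 kb, and peaks under 1 kb apart were joined. The members and lists were chosen with earlier results of these data known, and no test between gene lists was made. Values are given for every unmarked member, the 5 strongest and 5 weakest, the 3 widest and 3 narrowest, the 3 with the largest replicate ratio, the 4 strongest with a divergent neighbour, and paralogs. Alternatives were each replicate's list, the pooled list, other windows, a stricter q-value, other joining, members without another start nearby, other neighbour distances and types, mm9 and, added after the data were seen, the promoter table start. The code, in Python 3.11.15 with numpy 2.4.6, scipy 1.17.1 and matplotlib 3.10.9, was tested on simulated peaks.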

Additional observations from a re-analysis of the deposited data

How the results depend on the processing

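The number of marked members stayed near 101 under every alternative tried, where the main setting marked 14343 of 21536 coding genes. It was 100 with a window of 500 bp (13991 coding genes) and 102 with 2 kb (14774). With a q-value under 1e-05 it was 101 (14261), and 96 where a peak had to cover the 5′ end (12939). At the promoter table start it was 91 of 91 (11745 of 17492), and in the pooled mm9 list 103 (72.0% of coding genes). The number with a divergent neighbour was 27 of 103, and 26 within 500 bp, 28 within 2 kb and 31 with genes of every type. It was 31 at the table start, which is given for 91 of the members. The share of coding genes, 6.9%, is given for the main setting only. Median signal was 62.0, and 53.1 to 53.9 in the lists of single replicates, where the median of coding genes was 36.5 to 38.4. It was 61.3 for members with no other coding start within 1 kb and 62.8 at the table start. Median width was 2655 bp, and 2481 to 2525 bp in single replicates, 2787 bp in the pooled list, 2404 bp without joining, 2839 bp with peaks under 3 kb apart joined, 2371 bp for members with no other start nearby and 2556 bp at the table start. In each of these the members' median was above that of coding genes, by as little as 2839 against 2764 bp with 3 kb joining. The median summit offset of 262 bp was 248 to 264 bp in single replicates, 314 bp for members with no other start nearby and 247 bp at the table start; it was below that of coding genes in the main list (274 bp) but above it at the table start (227 bp) and for members with no other start nearby (292 bp). The cause of these shifts was not tested. No paired analysis was possible because there is only 1 group. Peak lists record nothing below their threshold and no depth, so a missing peak does not show that the mark is absent.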
